A study of Mus musculus with 8 samples.

Results

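DNA transposons are mobile elements that move by cutting themselves out of one place in the genome and inserting into another, using a transposase enzyme that intact copies encode. In the mouse genome they are ancient remnants that no longer move, most of them from the hAT superfamilies (named after hobo, Ac and Tam3) and from the Tc1/mariner superfamilies such as Tigger. Male germ cells make piRNAs, small RNAs bound by PIWI proteins, from long precursors transcribed at dedicated cluster loci, and a transposon copy that lies inside such a precursor is read out as small RNA in the one orientation that the precursor has.

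The members described here are all rows of the deposited small RNA table whose name places them in the DNA class of repeats. They were 23040 of the 1010917 rows in the table, of which 11141 count reads in the sense of the element and 11899 count reads antisense to it. They cover 21904 copies, 1136 of them listed on both strands, in 211 families of 13 superfamilies. Counts were summed by family and strand into 405 sums, and for FordPrefect single copies with at least 100 counts over the 8 libraries were also taken. The table names each copy by family and number and gives no position, so copies appear under those names and their coordinates and sequences were not used here.

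The libraries hold small RNA of spermatozoa from C57BL/6J mice, in 4 EtOH-Cessation libraries and 4 Control-Cessation libraries. By the labels, EtOH-Cessation stands for ethanol treatment followed by cessation and Control-Cessation for its control. The sources used here do not state the dose, the length of exposure, the time since cessation or the age of the animals. The labels call the material mature sperm, whereas the design text of the series names the caput region of the epididymis, and the labels do not say whether the libraries come from separate animals, so p-values measure the spread between these libraries, which may be technical.

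Library totals were 3116421 to 6805989 counts in the EtOH libraries and 4210785 to 4768713 in the control libraries. The class of piRNA cluster rows held 13.0% to 34.5% of the counts in EtOH libraries and 14.7% to 25.1% in control libraries, and the miRNA class 6.96% to 10.1% against 16.8% to 27.7%. All 12 markers of late sperm precursors were detected, with summed levels of 322 to 473 counts per 1000000 (CPM, per 1000000 of all counts of a library) in EtOH libraries and 511 to 622 CPM in control libraries. All 8 markers of epididymal epithelium were detected too, at 704 to 17623 CPM in EtOH libraries, with the highest sum in EtOH replicate 2, and at 356 to 488 CPM in control libraries. Of their counts over the 8 libraries, 68083 were on Crisp1, 16349 on Cd52 and 6835 on Adam7. Each other marker of this list had at most 64, and Defb41 had 1. All 5 leukocyte markers summed to 2.35 to 6.10 CPM in EtOH libraries and 2.52 to 9.97 CPM in control libraries, the 5 red blood cell markers to 1.62 to 17.7 CPM against 15.6 to 32.5 CPM, and the 4 smooth muscle markers to 15.04 to 40.3 CPM against 16.6 to 96.4 CPM. In bulk libraries, fewer cells of a type and less RNA per cell cannot be told apart.

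DNA transposon small RNA came from very few copies. The members held 226387 counts, 0.567% of all counts and 6.09% of the counts on repeats, although they are 3.19% of the 723115 repeat rows. The median row had 1 count over the 8 libraries, 276 rows reached 10 counts and 76 rows reached 100. A single row held 16.3% of the members' counts, the 10 most abundant rows 56.1% and the 20 most abundant rows 69.8%. That most abundant row was the sense row of FordPrefect_copy126, a copy of an hAT-Tip100 element, and only 4 of the repeat rows had more counts.

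The abundant copies were read from one strand. Of the 75 copies with at least 100 counts over both strands, 73 had at least 95% of them on one strand, 33 in sense and 40 in antisense. Which strand it was followed the copy and not the superfamily. In hAT-Charlie, by far the largest superfamily with 65.2% of the rows and 53.3% of the counts, the sense share was 50.5%, with abundant copies in both orientations. In hAT-Tip100, with 5.03% of the rows and 20.6% of the counts, the sense share was 93.3%, most of it FordPrefect_copy126. In hAT-Blackjack it was 1.96%, from the antisense reads of MER94B_copy21, and in MULE-MuDR, the Mutator-like elements, it was 99.5%, from the sense reads of Ricksha_c_copy330. TcMar-Tigger, with 9.62% of the counts, had 53.8% of them in sense. Of the 85 family and strand sums with at least 100 counts, 36 had more than 50% of their counts from a single copy and 18 more than 90%.

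Summed over all families, sense reads were fewer in EtOH libraries and antisense reads were not. The sense total was 2885, 2216, 3416 and 1744 CPM in EtOH replicates 1 to 4, against 4329, 4111, 3850 and 3470 CPM in control replicates 1 to 4. In CPM no EtOH library reached the lowest control library. The means were 2565 ± 735 CPM in EtOH libraries and 3940 ± 370 CPM in control libraries (SD, n = 4 each), a log2 ratio of -0.62, with a two-sided exact permutation p of 0.0286. That is the smallest p that 4 libraries against 4 allow, and adjusted over the 2 strand totals it was 0.0571.

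The antisense total was 2810, 1457, 3579 and 1657 CPM in EtOH libraries, against 2614, 1738, 2174 and 2620 CPM in control libraries. The EtOH values spanned the control values, with replicate 3 highest and replicate 2 lowest. The means were 2376 ± 999 CPM in EtOH libraries and 2287 ± 421 CPM in control libraries (SD, n = 4 each), a log2 ratio of 0.06 (two-sided exact permutation p = 0.857). With miRNA counts as the denominator, a class that itself took a smaller share of the EtOH libraries, both log2 ratios were positive, 0.58 for the sense total and 1.18 for the antisense total, so the direction depends on the denominator.

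The difference in the sense total was that of FordPrefect_copy126. Without this one row the sense total was 2590, 1416, 3228 and 1621 CPM in EtOH libraries, against 2551, 1737, 2043 and 2441 CPM in control libraries. The EtOH values then spanned the control values, with means of 2214 ± 848 CPM in EtOH libraries and 2193 ± 374 CPM in control libraries (SD, n = 4 each) and a log2 ratio of 0.01 (two-sided exact permutation p = 0.943). FordPrefect_copy126 made up 5.51% to 36.1% of the sense DNA transposon counts in EtOH libraries and 29.6% to 57.8% in control libraries.

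**Figure D1:**
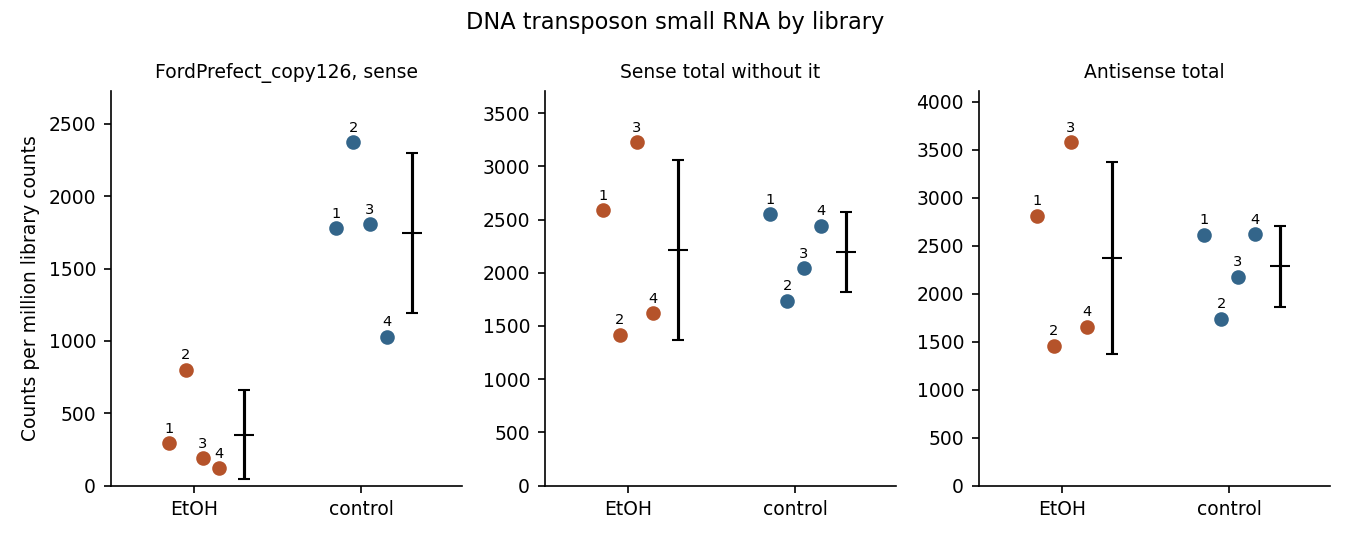
Counts per 1000000 library counts of FordPrefect_copy126, of the sense total without it and of the antisense total. Points are libraries numbered by replicate, and bars are the mean and SD of 4 libraries. EtOH libraries lie below 801 CPM and control libraries above 1028 CPM for FordPrefect_copy126, while the other panels overlap.

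FordPrefect small RNA held a smaller share of library counts in the EtOH libraries, and nearly all of it came from a single copy in sense. The 37 sense rows of the family held 37016 counts, 6486 in EtOH and 30530 in control libraries, and 36927 of them, or 99.8%, were on FordPrefect_copy126. This copy had 1958, 2493, 1282 and 698 counts in EtOH replicates 1 to 4, against 7746, 9997, 7848 and 4905 counts in control replicates 1 to 4. Per 1000000 counts that was 294, 800, 188 and 122 CPM in EtOH libraries, against 1778, 2374, 1807 and 1029 CPM in control libraries. Every EtOH library was below every control library, with EtOH replicate 2 the highest of its group and control replicate 4 the lowest of its group.

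The family sum averaged 353 ± 307 CPM in EtOH libraries and 1749 ± 552 CPM in control libraries (SD, n = 4 each), so that the control mean was 4.95 times the EtOH mean. In the fit of all features with repeat copies summed by family, its log2 fold change was -2.53 with a standard error of 0.53 and an adjusted p of 0.0366 by the quasi-likelihood test of edgeR. The call is close to the threshold of 0.05: the adjusted p was 0.109, 0.0725, 0.0897 and 0.0770 without control replicates 1, 2, 3 and 4 and 0.0535 without EtOH replicate 4, with edgeR each time. Without EtOH replicate 2 the EtOH libraries averaged 204 ± 88 CPM (SD, n = 3), with a log2 fold change of -3.12.

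Tested as a single row among all rows as deposited, FordPrefect_copy126 had a log2 fold change of -2.62 with a standard error of 0.55 and an adjusted p of 0.0525 in edgeR, just outside the threshold. DESeq2 gave the same row an adjusted p of 0.000346 and limma voom one of 0.00675. The sample identifiers of the EtOH libraries have 2 forms, PO_M for replicates 1 and 2 and PO_EM for replicates 3 and 4, and what they mean is not stated. Against all controls, the PO_M libraries alone gave the family a log2 fold change of -2.17 (edgeR adjusted p = 0.0110) and the PO_EM libraries alone -3.45 (edgeR adjusted p = 0.00822). Each of these fits holds only 2 EtOH libraries, and the share of all features it called is not given here. Both use the same controls, so they are not independent, and their adjusted p cannot be read as stronger than that of the full fit.

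The remaining FordPrefect rows were nearly silent. The other sense rows of the family summed to 89 counts, 55 in EtOH and 34 in control libraries, 4 of the 37 sense rows were at 0 throughout, and the row next in abundance had 14 counts, all in EtOH replicate 3. The copy just inside the limit of 100 counts therefore had 36927 and the one just outside it 14. The 33 antisense rows held 46 counts in all, 6, 0, 7 and 2 in EtOH libraries and 12, 7, 7 and 5 in control libraries. This is 0.570 ± 0.481 CPM in EtOH libraries and 1.77 ± 0.71 CPM in control libraries (SD, n = 4 each), and EtOH replicate 2, at 0 counts, allows up to 0.963 CPM. Since it did not pass the filter on low counts, the antisense sum was not tested. The name FordPrefect_a belongs to a separate family, with 6 counts in sense and 6 in antisense.

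FordPrefect_copy126 did not keep a fixed ratio to the piRNA cluster class or to the miRNA class. Per 1000000 piRNA cluster counts it was 1146, 6142, 546 and 849 in EtOH libraries, against 7531, 16195, 8890 and 4098 in control libraries, so that EtOH replicate 2 was above control replicate 4. The lowest and highest of the 8 libraries differed by a factor of 29.7. Scaled to piRNA cluster totals, the family had a log2 fold change of -2.08 and an edgeR adjusted p of 0.237, and was not called. Per 1000000 miRNA counts it was 3040, 11493, 1856 and 1755 in EtOH libraries, against 9568, 8563, 10174 and 6125 in control libraries, and EtOH replicate 2 then lay above all controls. EtOH replicate 2 also had the highest sum of epididymal epithelium markers, 17623 CPM against 704 to 2537 CPM in the other EtOH libraries. The marker sums also moved with the groups: epididymal epithelium markers were higher in every EtOH library (704 to 17623 CPM) than in any control library (356 to 488 CPM), and late sperm precursor markers were lower (322 to 473 CPM in EtOH libraries against 511 to 622 CPM in control libraries). Of the single epididymal markers, only Crisp1, Adam7, Cd52 and Rnase10 were higher in every EtOH library than in any control library. Of the single late sperm precursor markers, only Prm1, Odf1 and Smcp were lower in every EtOH library. The groups overlapped in the other markers of both lists. Among all single rows tested, CPM without overlap was found upward in 12.4% and downward in 4.08%. The median log2 fold change of the 4600 exon rows tested was 0.70, so higher exon levels in EtOH libraries were not particular to these markers. The part of the differences in marker sums in the FordPrefect result was not tested.

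**Figure D2:**
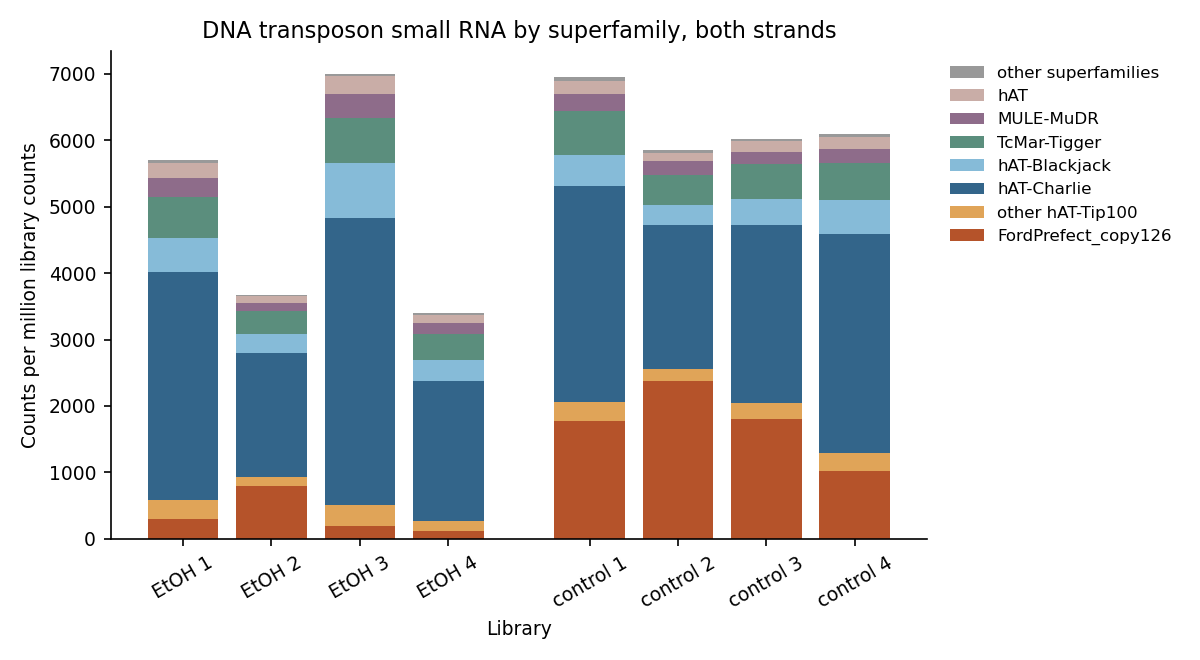
DNA transposon counts per 1000000 library counts of each library, both strands, stacked by superfamily with FordPrefect_copy126 shown on its own at the base. The FordPrefect_copy126 segment is 122 to 800 CPM in EtOH libraries and 1029 to 2374 CPM in control libraries. In every library except control replicate 2, hAT-Charlie is the largest segment.

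Most other abundant copies did the opposite and held a near-fixed ratio to the piRNA cluster class in all 8 libraries. Charlie1a_copy967, an hAT-Charlie copy read in sense and second in abundance with 20121 counts, had 2336, 2311, 2244 and 2198 counts per 1000000 piRNA cluster counts in EtOH libraries, against 2177, 2279, 2033 and 2234 in control libraries. Its coefficient of variation (SD over mean) across the 8 libraries was 4.26%. MER94B_copy21, an hAT-Blackjack copy read in antisense, had 1896, 1988, 2294 and 1985 in EtOH libraries, against 1857, 1950, 1780 and 1925 in control libraries, a variation of 7.75%. In both copies the groups overlapped and the libraries lay close together.

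MER20_copy4703, of hAT-Charlie, varied by 9.64%, Charlie1b_copy830 by 6.54%, URR1B_copy15656 by 6.30%, MER2_copy1958, of TcMar-Tigger, by 4.86%, and Ricksha_c_copy330, of MULE-MuDR, by 15.9%. FordPrefect_copy126 varied by 93.6% on this scale. Among the 33 tested copies with at least 1000 counts the median variation was 11.7%, and apart from FordPrefect_copy126 and 4 copies of Charlie1 the largest in this group was the 20.3% of Charlie12_copy95. Over all 75 tested copies the median was 18.8%, against 39.4% for the same copies in CPM, and 71 of the 75 varied less per piRNA cluster count than in CPM. Tested copies of other repeat classes had medians of 21.3% in LINE, 25.7% in LTR, 22.9% in SINE and 71.4% in satellite repeats, with lower counts per copy, so these medians are given as a description. The sources used here do not state whether a read on a repeat copy is also counted in a cluster row, and the part of this in these ratios was not tested.

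**Figure D3:**
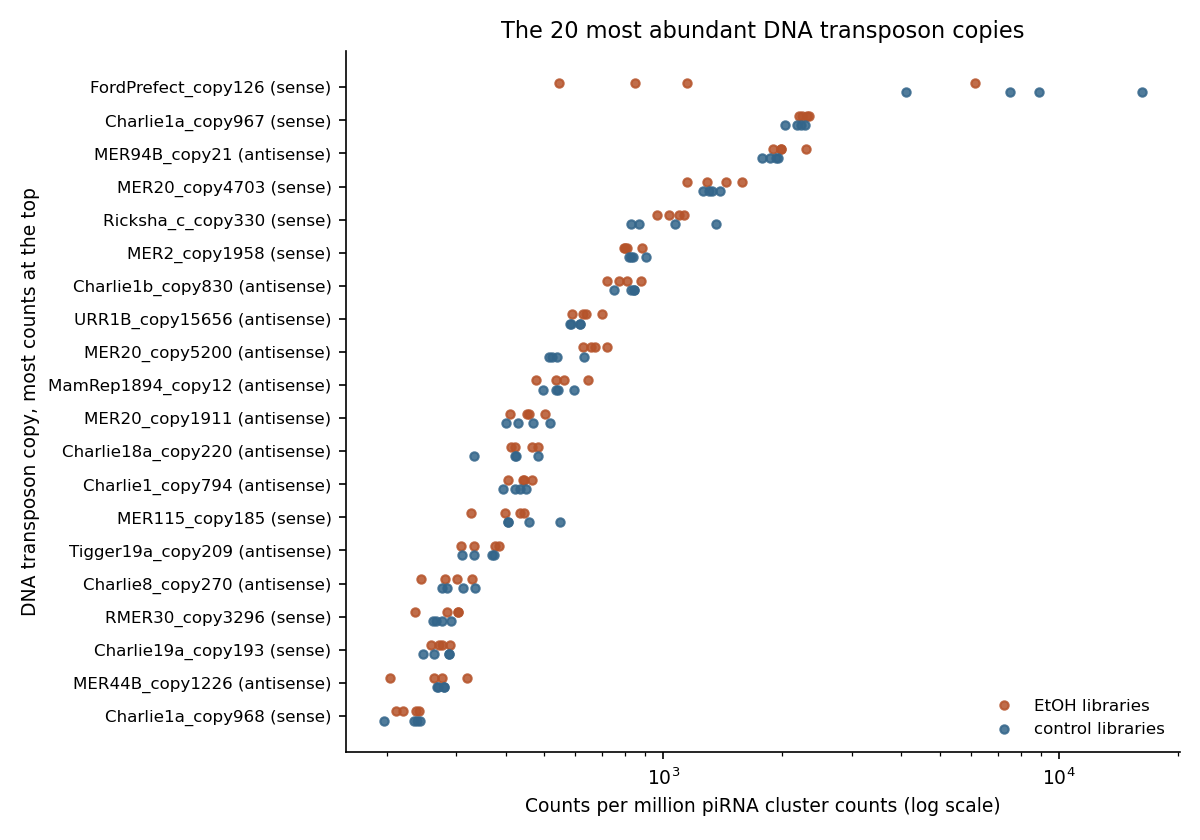
Counts per 1000000 piRNA cluster counts (log axis) of the 20 most abundant DNA transposon copies, with EtOH libraries drawn above control libraries in each line. FordPrefect_copy126 spreads from 546 to 16195, whereas the 8 libraries of Charlie1a_copy967 lie between 2033 and 2336.

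Summed, this steadiness was closer still. The 75 rows with at least 100 counts other than FordPrefect_copy126, which hold 68.1% of the members' counts, came to 16976, 17224, 17460 and 17556 per 1000000 piRNA cluster counts in EtOH libraries, against 16923, 17331, 16046 and 17027 in control libraries. The means were 17304 ± 259 in EtOH libraries and 16832 ± 552 in control libraries (SD, n = 4 each), with a variation of 2.77% over the 8 libraries. In CPM the same rows ranged from 2243 to 6029 in EtOH libraries and from 2541 to 4274 in control libraries, and varied by 34.7%. The antisense total, at 10997 ± 480 per 1000000 piRNA cluster counts in EtOH libraries and 11015 ± 619 in control libraries (SD, n = 4 each), varied by 4.66%.

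Rows under 100 counts behaved otherwise. These 11106 sense and 11858 antisense rows held 7.67% and 7.95% of the members' counts, so that the many scattered copies were close to balanced between the strands. In sense they came to 503, 317, 393 and 374 CPM in EtOH libraries, against 581, 458.1, 461 and 371 CPM in control libraries. In antisense they came to 536, 313, 385 and 374 CPM in EtOH libraries, against 589, 476, 493 and 416 CPM in control libraries. The groups overlapped on both strands. Their sums varied by 19.7% in sense and 20.5% in antisense in CPM but by 29.2% and 28.5% per piRNA cluster count, the reverse of the abundant copies.

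The most abundant families other than FordPrefect had like levels in both groups. Charlie1a in sense averaged 591 ± 267 CPM in EtOH libraries and 547 ± 120 CPM in control libraries. MER94B in antisense averaged 456 ± 246 CPM in EtOH libraries and 392 ± 87 CPM in control libraries. MER20, a short non-autonomous hAT-Charlie element, averaged 350 ± 132 CPM in EtOH and 341 ± 84 CPM in control libraries in sense, and 270 ± 117 CPM in EtOH and 243 ± 58 CPM in control libraries in antisense (SD, n = 4 each).

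Charlie1 in antisense averaged 240 ± 110 CPM in EtOH libraries and 231 ± 55 CPM in control libraries. Ricksha_c in sense averaged 233 ± 108 CPM in EtOH and 211 ± 36 CPM in control libraries, MER2 in sense 204 ± 77 CPM in EtOH and 210 ± 44 CPM in control libraries, and URR1B in antisense 207 ± 93 CPM in EtOH and 202 ± 38 CPM in control libraries. Charlie1b in antisense averaged 180 ± 72 CPM in EtOH and 180 ± 42 CPM in control libraries, MamRep1894 in antisense 123 ± 61 CPM in EtOH and 113 ± 26 CPM in control libraries, and RMER30 in sense 112 ± 55 CPM in EtOH and 113 ± 20 CPM in control libraries. In each of these 11 sums the difference of the means was smaller than the SD of the EtOH libraries, and none passed the test. All 11 were lower in EtOH replicates 2 and 4, the EtOH libraries with the smaller shares of piRNA cluster counts, than in EtOH replicates 1 and 3.

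Across families, 2 of the 91 family and strand sums that passed the filter were lower in EtOH libraries and 0 were higher at an adjusted p below 0.05 in edgeR. In the same fit 1.83% of all features tested were called lower and 8.08% higher. At p below 0.05 without adjustment, 4 members were lower and 0 higher, where 8.46% of all features were lower and 20.7% higher. DESeq2 called 3 members lower and 0 higher, with 4.56% of all features lower and 15% higher, and limma voom called 1 lower and 0 higher, with 2.64% of all features lower and 6.37% higher. The CPM of the groups did not overlap in 4 sums, all lower in EtOH libraries, where 4.5% of all features did so downward and 12.9% upward. Apart from the upward calls, where the members had 0, these shares are near the background or below it.

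The median log2 fold change over the 91 sums was -0.18, beside -0.04 over all features, and 74 of the 91 were below 0 against 5167 of all 9822. Scaled by library size alone the medians were -0.04 for the members and 0.10 for all features, and scaled to piRNA cluster totals -0.11 and 0.12, so the members' median lay below that of all features under each of these scalings. This was not particular to DNA transposons. In the fit of rows as deposited, the median over tested copies was -0.15 in DNA transposons, beside -0.09 over all rows of that fit. It was -0.16 in LINE, -0.16 in LTR, -0.12 in SINE and -0.87 in satellite repeats. The other sum that passed was MER45A in antisense, an hAT-Tip100 element, with 13, 4, 9 and 9 counts in EtOH libraries and 14, 19, 13 and 16 in control libraries. That is 1.54 ± 0.31 CPM in EtOH libraries and 3.52 ± 0.68 CPM in control libraries (SD, n = 4 each), without overlap. Its log2 fold change was -1.30 with a standard error of 0.34 and an edgeR adjusted p of 0.0374, and leaving out any one library other than EtOH replicate 3 gave 0.0518 to 0.109.

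The antisense counts of MER45A came to 52.6% from MER45A_copy678, whose reads are mostly in sense with 714 counts, and the sense sum of the family had a log2 fold change of -0.35 (edgeR adjusted p = 0.637). Next in order of p, MER44D in antisense, a TcMar-Tigger element, had 14, 2, 12 and 2 counts in EtOH libraries and 15, 14, 12 and 13 in control libraries, low in EtOH replicates 2 and 4. Its log2 fold change was -1.36 (edgeR adjusted p = 0.0759), and without EtOH replicate 3 it was -1.70 (edgeR adjusted p = 0.0377). Tigger13a in antisense had a log2 fold change of -0.93, Tigger5 in antisense -0.72 and MER3 in sense -0.72, with edgeR adjusted p of 0.0986, 0.192 and 0.193.

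In the other direction the 6 sums with the lowest p were MER63A in antisense, Charlie8, Charlie4a, Cheshire and MER45B in sense and Charlie12 in antisense. Their log2 fold changes ran from 0.24 in MER63A to 0.11 in Charlie12, with edgeR adjusted p of 0.731 to 0.910.

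**Figure D4:**
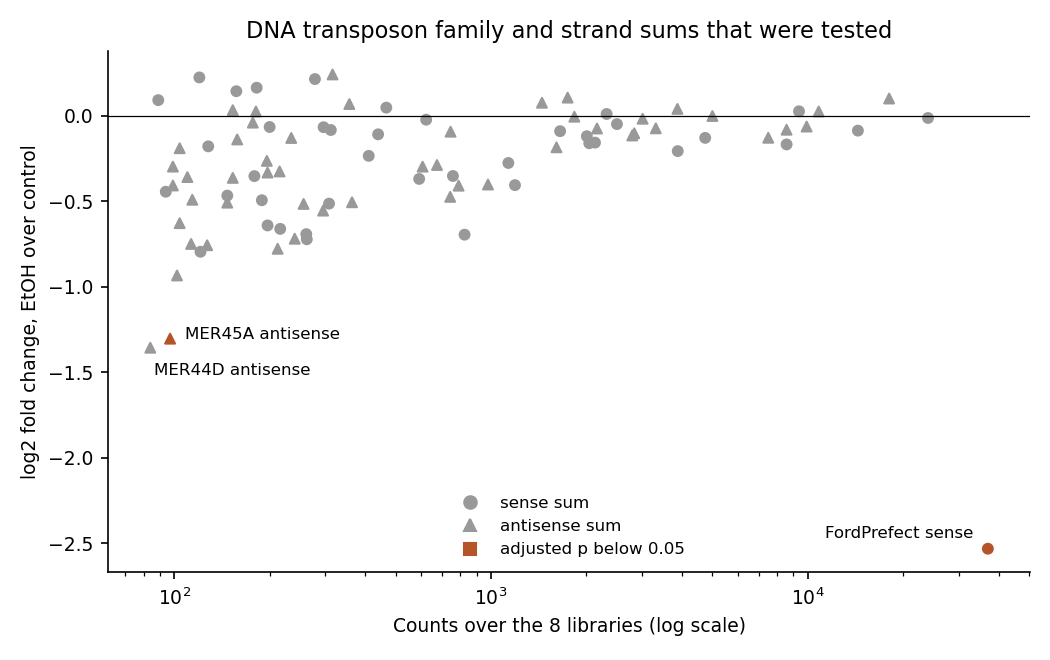
Log2 fold change (EtOH over control) of the 91 family and strand sums that passed the filter against their counts over the 8 libraries (log axis). Red marks an edgeR adjusted p below 0.05, reached by FordPrefect in sense at -2.53 and MER45A in antisense at -1.30, and most sums with over 1000 counts lie close to 0.

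Among single copies, 75 passed the filter, and none of them had 0 counts in any library. With edgeR 0 were higher and 0 lower at an adjusted p below 0.05, where 0.0489% of all rows were called higher and 0.137% lower. Without adjustment, at p below 0.05, 0 were higher and 1, FordPrefect_copy126, was lower, beside 17.9% of all rows higher and 9.15% lower. DESeq2 called 0 higher and 1 lower, with 13.1% of all rows higher and 3.95% lower, and limma voom 0 higher and 1 lower, with 4.06% of all rows higher and 2.34% lower. The CPM of the groups did not overlap in 1 copy, lower in EtOH libraries, beside 12.4% of all rows upward and 4.08% downward. It was FordPrefect_copy126 in each of these counts.

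URR1A_copy7254, an hAT-Charlie copy read in antisense, had the lowest p of the copies with a positive log2 fold change. It had 185, 43, 323 and 74 counts in EtOH libraries, against 54, 33, 52 and 101 in control libraries, a log2 fold change of 0.72 with a standard error of 0.49 and an edgeR adjusted p of 0.371. Per 1000000 piRNA cluster counts it was 108, 106, 137 and 90.04 in EtOH libraries, against 52.5, 53.5, 58.9 and 84.4 in control libraries. On that scale every EtOH library was above every control library, whereas the CPM overlapped. The share of all rows without overlap on that scale is not given here, so this only describes the copy.

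Charlie1_copy566, also read in antisense, came next in order of p, with a log2 fold change of 0.73. MER63A_copy270, Charlie1a_copy2152, MER5A1_copy3041 and MER58B_copy2283 followed, with log2 fold changes of 0.27, 0.17, 0.16 and 0.14. Among those with negative values, URR1B_copy6126 was at -0.59, Charlie1a_copy2153 at -0.54 and RMER30_copy500 at -0.62. The edgeR adjusted p of the 7 copies other than Charlie1_copy566 lay between 0.410 and 0.886. Charlie1a_copy2152 and Charlie1a_copy2153 bear adjacent numbers, as do 20 of the 76 rows with at least 100 counts, in runs such as MER20_copy1910 to MER20_copy1912 and Charlie1_copy566 to Charlie1_copy569. What adjacent numbers mean for position is not stated in the table.

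In the Charlie1 run, EtOH replicate 1 differed from the other libraries in how its counts were spread over the copies. Charlie1_copy566 in antisense had 895, 66, 309 and 82 counts in EtOH libraries, against 143, 86, 76 and 200 in control libraries, with EtOH replicate 1 far above the rest. Charlie1_copy567 and Charlie1_copy568 had the same counts in all 8 libraries, 53, 48, 306 and 127 in EtOH libraries and 155, 94, 101 and 167 in control libraries, and Charlie1_copy569 had 80, 60, 448 and 116 in EtOH libraries and 181, 120, 153 and 198 in control libraries. These 3 rows were low in EtOH replicate 1, where Charlie1_copy566 was high.

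Per 1000000 piRNA cluster counts, Charlie1_copy566 was 524, 163, 131 and 99.8 in EtOH libraries, against 139, 139, 86.1 and 167 in control libraries. Charlie1_copy569 was 46.8, 148, 191 and 141 in EtOH libraries, against 176, 194, 173 and 165 in control libraries. The sum of the 4 rows was 633, 547, 583 and 550 in EtOH libraries, against 616, 638, 488 and 612 in control libraries, or 578 ± 40 and 589 ± 68 (SD, n = 4 each). EtOH replicate 1 was thus within the range of the control libraries in the sum while it stood apart in the single rows. With the identical rows counted once it was 602 in EtOH replicate 1, against 395 to 452 in the other EtOH libraries and 374 to 486 in control libraries, so the steadiness of the sum depends on counting both.

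In edgeR the log2 fold changes were 0.73 for Charlie1_copy566 (adjusted p = 0.496) and -0.57 for Charlie1_copy567 (adjusted p = 0.507). The sources used here do not state how reads that match several copies were assigned, and the part of this in the pattern was not tested. Over all members, 7 rows with at least 10 counts had the same counts as another row of their family and strand in all 8 libraries.

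**Figure D5:**
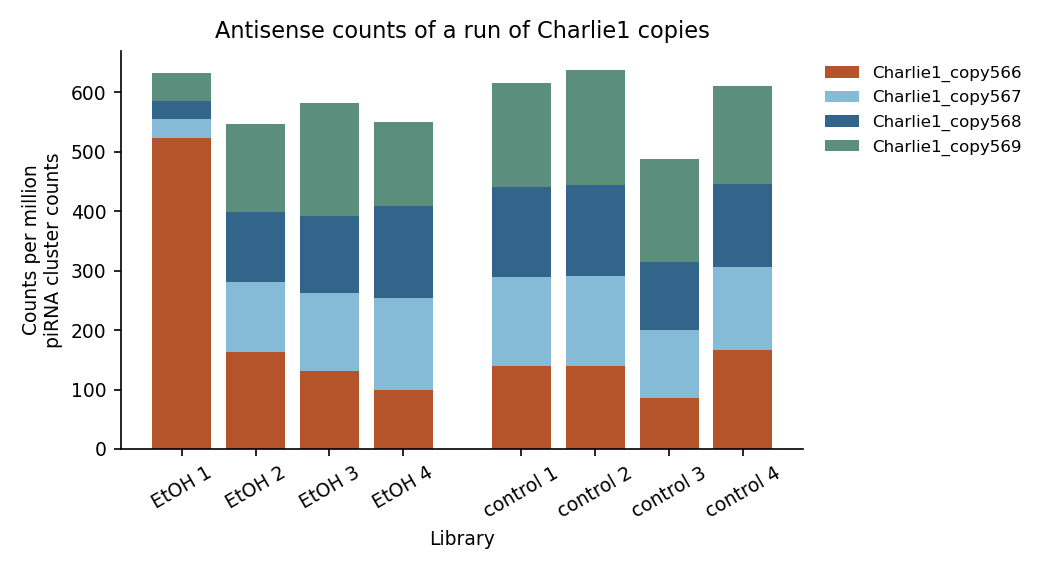
Antisense counts per 1000000 piRNA cluster counts of the run from Charlie1_copy566 to Charlie1_copy569, stacked, in each library. In EtOH replicate 1 Charlie1_copy566 makes up most of the bar at 524, yet the bar's height of 633 is close to that of the other libraries. The bars count both Charlie1_copy567 and Charlie1_copy568, which are identical. Counted once, the sum in EtOH replicate 1 is 602, against 374 to 486 in control libraries.

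Lists of host genes that bear on DNA transposons were also read from the same table. Of 27 genes of the piRNA pathway, 25 had exon counts and 6 rows passed the filter, among them exons of Piwil1 and Piwil2, PIWI proteins that bind piRNAs, and of Pld6, a mitochondrial nuclease of piRNA maturation. In edgeR 0 of the 6 rows passed at an adjusted p below 0.05, where 0.0489% of all rows were called higher and 0.137% lower. At p below 0.05 without adjustment there were 0 as well, beside 17.9% of all rows higher and 9.15% lower. DESeq2 called 0, with 13.1% of all rows higher and 3.95% lower, and limma voom called 0, with 4.06% higher and 2.34% lower. The median log2 fold change of the 5 exon rows was -0.17, beside 0.70 over the 4600 exon rows tested.

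Of 19 host genes that derive from transposases, 19 had exon counts and 8 rows of 6 genes passed the filter. In edgeR 0 passed at an adjusted p below 0.05, and at p below 0.05 without adjustment 1 was higher and 3 were lower, against the same shares of all rows, 17.9% higher and 9.15% lower. The median log2 fold change of its 5 exon rows was 0.63, beside the 0.70 of all exon rows. The higher one was the exon of Cenpb, a centromere protein derived from a pogo-like transposase, at 14.6 ± 11.5 CPM in EtOH libraries and 1.87 ± 0.49 CPM in control libraries (SD, n = 4 each), with a log2 fold change of 2.66, a standard error of 0.55 and an edgeR adjusted p of 0.0525. Its levels were 7.37, 31.1, 6.32 and 13.5 CPM in EtOH libraries and 1.38, 1.90, 2.53 and 1.68 CPM in control libraries, without overlap and highest in EtOH replicate 2. DESeq2 and limma voom each called this row and no other of the list, where DESeq2 called 13.1% and limma voom 4.06% of all rows higher. The 3 lower rows were all introns of the gene Zbed3, listed under 3 transcripts and 2 of them with the same values, so they are not separate genes, with log2 fold changes of -1.01 to -1.02 and edgeR adjusted p of 0.136 to 0.139.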

How the data were processed

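Small RNA was sequenced from spermatozoa in 8 libraries, of which read 1 alone was used, per the labels. The deposited values are whole-number counts per annotated feature with no normalization. The submitters' processing notes name cutadapt, an adapter trimmer, without a version. The sources used here state no aligner, genome build, annotation or rule for reads with several matches. Sense and antisense follow the class names of the table.

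Groups came from the treatment label. Rows as deposited, and separately a table with repeat rows summed by family and strand, were each fitted whole with edgeR 4.0.16 in R 4.3.3 (TMM scaling, filterByExpr with a minimum count of 10 and a minimum total of 15, quasi-likelihood F test, Benjamini-Hochberg adjustment over all 10234 or 9822 features, threshold 0.05). Log2 fold changes are EtOH over control. Strand totals were compared by a two-sided exact permutation test over all 70 ways to label 4 of the libraries as EtOH. The floor for a value of 0 is 3 counts of a library and covers counting error alone. Alternatives used median-of-ratios size factors, library size alone, DESeq2 1.42.0, limma 3.58.1 voom with quality weights, other filters, other denominators, each library left out, and either identifier form. The edgeR step alone was also run on simulated counts that lack the differences in class shares between the groups. That run therefore cannot vouch for the calls made here.

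Members, lists and alternatives were chosen with earlier results of these data known. Named were FordPrefect, the 12 most abundant family sums, the 8 most abundant copies, up to 6 sums and 6 copies per direction with the lowest p, and every member past the threshold. The copies described for their variation or share, and the features under other observations, were chosen after their values were seen.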

Additional observations from a re-analysis of the deposited data

Results flagged for a closer look

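Some values stood far from the other 3 libraries of their group, by a test of the largest gap within a group of 4. Chance alone gives such a value in about 1 of 20 groups, if the groups are independent. Here 196 groups, which partly share values, were screened, so the 7 values below are in number no more than chance would give. This concerns their number alone, and the cause of any single value was not tested. The epididymal epithelium markers summed to 17623 CPM in EtOH replicate 2, against 704 to 2537 CPM in the other EtOH libraries. FordPrefect_copy126 was at 6142 per 1000000 piRNA cluster counts in the same library, against 546 to 1146 in the other EtOH libraries. MER2_copy1958 was at 884.5 per 1000000 piRNA cluster counts in it, against 794 to 809.

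Charlie1_copy566 was at 524 per 1000000 piRNA cluster counts in EtOH replicate 1, against 99.8 to 163 in the other EtOH libraries. Control replicate 4 had 150.4 for MER5A1_copy3041 on that scale, against 117 to 122 in the other controls. Control replicate 2 had 21.1 for MER58B_copy2283, against 9.06 to 10.7 in the other controls, and 46.5 CPM for the sense sum of the hAT superfamily, against 52.6 to 53.0 CPM.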

How the results depend on the processing

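No paired analysis was possible because the replicate numbers follow accession order and pair nothing. With library totals as denominator the log2 ratio of the sense total was -0.62, and it was positive per 1000000 miRNA counts (0.58) and without FordPrefect_copy126 (0.014), with -0.79 to -0.47 when 1 library was left out. The antisense log2 ratio of 0.06 became -0.13 without the miRNA and hairpin classes, -0.0023 per piRNA cluster count, -0.10 with the PO_M libraries alone and 1.18 per miRNA count, and ran from -0.21 to 0.23 with 1 library left out. The count of 2 family sums past the threshold became 0 with median-of-ratios factors or piRNA cluster scaling, 1 with limma voom, no filter, the PO_EM libraries alone or identical rows counted once, and 0 to 3 with 1 library left out. The count of 0 single copies became 1 with library size alone, DESeq2, limma voom or the PO_EM libraries, 3 with no filter, 4 with the PO_M libraries, and 0 to 2 with 1 library left out. Shares of all features called are given above only for the main edgeR fits, DESeq2 and limma voom. The counts under other settings have no such share beside them, so they cannot be read as many or few.

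FordPrefect in sense kept its negative sign in all alternatives. Its family sum missed the threshold with median-of-ratios factors (-2.42, edgeR adjusted p = 0.0523) and piRNA cluster scaling (-2.08), and ran from -3.12 to -2.23 with 1 library left out. FordPrefect_copy126 passed with library size alone (-2.31), DESeq2 (-2.44), limma voom (-3.01), no filter (-2.75), the PO_M libraries (-2.22) and the PO_EM libraries (-3.52), and ran from -3.21 to -2.30 with 1 library left out, passing without EtOH replicate 2 or 3. The antisense difference in CPM stayed between -1.44 and -0.87. The transposase-derived list had 0 calls, 1 with library size alone, DESeq2 or limma voom, 2 with no filter, 5 with the PO_M libraries and 0 to 1 with 1 library left out, and the piRNA pathway list had 0 in each. The same limit on shares of all features holds for these list counts.

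Weakly changed features turned sign: with the PO_M libraries Charlie4a (-0.058), Cheshire (-0.092), Charlie12 (-0.40), Charlie1a_copy2152 (-0.17), MER5A1_copy3041 (-0.46) and MER58B_copy2283 (-0.0049), with the PO_EM libraries Charlie8 (-0.085), Charlie1_copy567 and Charlie1_copy568 (0.16 each). With the PO_M libraries these last copies were at -1.81 each, against -0.57 with all libraries, and passed the threshold (edgeR adjusted p = 0.0260). That fit holds only part of the EtOH libraries, and the share of all rows it called is not given here. With 1 library left out the ranges were -0.015 to 0.47 for MER63A, -0.0016 to 0.43 for Charlie8, -0.060 to 0.40 for Charlie4a, -0.054 to 0.44 for Cheshire, -0.23 to 0.49 for MER45B, -0.41 to 0.36 for Charlie12, -0.12 to 1.08 for Charlie1_copy566, -0.25 to 0.42 for Charlie1a_copy2152, -0.31 to 0.45 for MER5A1_copy3041 and -0.19 to 0.40 for MER58B_copy2283. The cause of these changes was not tested. MER45A in antisense rests on 97 counts over the 8 libraries.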

Other observations

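The features whose level across the 8 libraries was most like that of FordPrefect_copy126 were looked for among 1116 rows with at least 2000 counts, by the largest gap in any library between the profiles of log2(count + 1), each centred on its mean. This search was added after the values were seen and is a description. The nearest was the exon of Rmrp, the RNA of the RNase MRP enzyme, with a largest gap of 0.93 on the log2 scale, with 312, 206, 238 and 156 counts in EtOH libraries and 646, 881, 802 and 438 counts in control libraries. That is 46.9, 66.1, 35.0 and 27.4 CPM in EtOH libraries and 148, 209, 185 and 91.8 CPM in control libraries. As for FordPrefect_copy126, every EtOH library was below every control library and control replicate 4 was the lowest of its group. This likeness follows largely from the search, which picks rows of such a profile. Of all rows tested, 4.08% were without overlap downward. Next came Gas5 intron_1 (gap 1.14), Nop58 intron_1 (1.16), Snord100 (1.17), Rpl17 intron_3 (1.18) and Snord85 (1.23), introns being numbered as in the table. Gas5, Nop58 and Rpl17 are genes known to host small nucleolar RNAs in introns, and Snord100 and Snord85 are such RNAs.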
